A study of Mus musculus with 24 samples.

Results

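The brown fat effector genes described here were Cidea, Cidec, Dio2, Letmd1, Kcnk3, Otop1, Adtrp and Aqp7. They were chosen by gene symbol, and all 8 had a row among the 23017 genes of the deposited table. All 8 passed the filter on low values and were among the 17263 genes tested. The table gave RNA-seq values of brown adipose tissue of C57BL/6J mice, which the study's title calls obese and insulin resistant, in 24 libraries. The groups were tirzepatide (TZP), a dual agonist at the GIP and GLP-1 receptors, an agonist with long action at the GIP receptor alone (LAGIPRA), vehicle with pair feeding (PairFedVehicle) and vehicle with free feeding (Vehicle), with 6 libraries each. Pair feeding limits an animal to the intake of another group, and the labels do not say which group set it. Dose, duration, age and sex are not stated either.

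Brown adipocytes burn fatty acids in mitochondria that are uncoupled by Ucp1, and sympathetic signals acting through cAMP switch this on. The genes described here serve the steps around uncoupling. Cidea and Cidec coat lipid droplets and move lipid between them, Dio2 turns thyroxine into active thyroid hormone, and Letmd1 is a mitochondrial protein that mouse brown fat needs for heat production. Kcnk3 is a potassium channel of the K2P family that dampens the adrenergic response of mouse adipocytes, and Otop1 is a proton channel. Adtrp hydrolyses fatty acid esters of hydroxy fatty acids (FAHFAs), and Aqp7 is the glycerol channel of adipocytes.

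Promoters from RefSeq (build GRCm38.p6, windows of 300 bases around an annotated start, most of them before it) were used for 6 of the 8 genes, as 9 sequences. Those of Cidea and Kcnk3 were not analysed here. They are shown for the genes whose values differed most between groups, and for Dio2, whose promoter held the full cAMP response element. Both strands were searched for TGACGTCA (the cAMP response element), AGGTCA followed after any 1 base by AGGTCA (the PPAR DR1 element), TCAAGGTCA (the estrogen-related receptor element) and TCCC followed after any 2 bases by GGGA (the EBF element). The nuclear receptor half-site AGGTCA, which lies within the PPAR and estrogen-related receptor elements, was added after the sequences were seen. Capitals mark a match, and a half-site read on the opposite strand appears as TGACCT. Of 32851 promoters, 1.79% held the cAMP element, 0.0396% the PPAR element, 0.423% the estrogen-related receptor element, 0.904% the EBF element and 16.3% a half-site.
Dio2 (chr12:90738989-90739288, minus strand): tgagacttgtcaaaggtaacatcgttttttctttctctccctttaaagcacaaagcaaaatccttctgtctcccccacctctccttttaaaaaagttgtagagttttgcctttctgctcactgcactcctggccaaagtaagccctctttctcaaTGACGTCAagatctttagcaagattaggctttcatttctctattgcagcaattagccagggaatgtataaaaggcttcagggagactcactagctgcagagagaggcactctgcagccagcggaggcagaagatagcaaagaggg
Letmd1 (chr15:100468761-100469060, plus strand): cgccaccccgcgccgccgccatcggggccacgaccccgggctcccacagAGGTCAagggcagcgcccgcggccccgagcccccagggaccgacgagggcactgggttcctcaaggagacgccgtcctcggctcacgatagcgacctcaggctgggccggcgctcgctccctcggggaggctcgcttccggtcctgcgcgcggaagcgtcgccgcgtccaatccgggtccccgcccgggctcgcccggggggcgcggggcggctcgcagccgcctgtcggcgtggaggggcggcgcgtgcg
Adtrp (chr13:41847567-41847866, minus strand): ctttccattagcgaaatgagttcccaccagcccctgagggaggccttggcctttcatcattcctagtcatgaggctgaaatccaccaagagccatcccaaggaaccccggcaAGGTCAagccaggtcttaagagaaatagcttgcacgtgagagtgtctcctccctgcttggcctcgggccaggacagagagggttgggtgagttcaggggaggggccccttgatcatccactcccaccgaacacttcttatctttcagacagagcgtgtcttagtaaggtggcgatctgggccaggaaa
Aqp7 (chr4:41048087-41048386, minus strand): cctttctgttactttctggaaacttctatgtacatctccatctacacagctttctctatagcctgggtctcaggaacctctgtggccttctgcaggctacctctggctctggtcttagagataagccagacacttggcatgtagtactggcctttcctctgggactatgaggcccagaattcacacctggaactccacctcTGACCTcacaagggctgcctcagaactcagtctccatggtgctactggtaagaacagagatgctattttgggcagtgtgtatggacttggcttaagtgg
The cAMP element of Dio2 began 95 bases before the start. Letmd1, Adtrp and Aqp7 each held 1 half-site in the sequence shown, while a second annotated start of Adtrp held none and a second one of Aqp7, whose window overlaps the first, held 2. The searched sequences of Otop1 and Cidec, which are not shown, held no match to any of the letters. In all, 5 of the 9 sequences held a match. No match to the PPAR, estrogen-related receptor or EBF letters was found in the 9 sequences. A match is a description of letters, not of binding.

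Values are log2 expression per gene as deposited, and fold changes are 2 to the power of the log2 difference. The scale, log2 with an offset near 1, was inferred from the values. Each difference comes from a limma fit to all 24 libraries, with adjusted p taken over all tested genes (Benjamini-Hochberg, two-sided, called below 0.05) and a 95% confidence interval. The labels do not say whether the 6 libraries of a group came from separate animals, so p-values measure the spread between libraries. In tissue RNA, fewer cells of a type and less RNA per cell cannot be told apart.

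Libraries of a group correlated at r = 0.911 to 0.977 across genes. The brown fat markers were present throughout, with Ucp1 between 14.70 and 15.91, Zic1 between 5.14 and 6.51 and Ebf2 between 5.05 and 6.61. Against Vehicle, Ucp1 was higher in TZP (0.50, adjusted p = 0.00579), LAGIPRA (0.41, adjusted p = 0.0274) and PairFedVehicle (0.45, adjusted p = 0.0208). Ebf2 was lower in TZP (-0.62, adjusted p = 0.0281). It did not pass in LAGIPRA (0.081, adjusted p = 0.815) or PairFedVehicle (-0.099, adjusted p = 0.819). Zic1 was higher in PairFedVehicle (0.87, adjusted p = 0.00174). It did not pass in TZP (0.41, adjusted p = 0.0794) or LAGIPRA (0.28, adjusted p = 0.252). Of 7 white adipocyte markers, Lep (6.39 to 9.13), Retn (5.91 to 7.67), Hoxc8 (6.56 to 7.83), Nnat (5.04 to 6.62) and Mest (3.36 to 5.76) were also present in every library, Agt lay between 1.02 and 3.37, and Hoxc9 lay between 0.00025 and 1.65. The 5 adipocyte markers (Adipoq, Plin1, Fabp4, Pparg and Lipe) averaged 11.05 in TZP, 11.15 in LAGIPRA, 11.11 in PairFedVehicle and 10.96 in Vehicle. Their library means ran from 10.81 to 11.21 in TZP, 11.01 to 11.28 in LAGIPRA, 10.90 to 11.36 in PairFedVehicle and 10.79 to 11.09 in Vehicle. The means of 10 macrophage markers ran from 7.93 to 8.90 in TZP, 7.73 to 8.73 in LAGIPRA, 7.996 to 9.33 in PairFedVehicle and 8.22 to 9.32 in Vehicle, and those of 11 endothelial markers from 6.85 to 7.41, 7.46 to 7.58, 7.53 to 7.70 and 7.46 to 7.73 in the same order. In TZP against Vehicle 7 of the 11 endothelial and 5 of 5 erythroid markers were called lower, where 10.3% of all tested genes were. In LAGIPRA against Vehicle 5 of the 10 macrophage markers were called lower, where 5.03% of all tested genes were. Of the 5 adipocyte markers 0 were called higher in TZP, 1 in LAGIPRA and 2 in PairFedVehicle. The shares of all tested genes called higher were 11.7%, 8.7% and 4.96% in the same order. The 16 skeletal muscle markers varied most, with Ckm from -0.32 to 12.53. The commonest low value above 0 in a library, a proxy for the level that 1 read gives and thus larger at lower depth (the one-read value), averaged 1.32 in TZP, 1.35 in LAGIPRA, 1.15 in PairFedVehicle and 1.04 in Vehicle. The slope of expression on transcript length averaged -0.066 log2 per doubling in TZP, 0.0096 in LAGIPRA, 0.013 in PairFedVehicle and 0.044 in Vehicle, and it was below -0.06 in TZP libraries 3 to 6 alone. Except where an alternative is given, the part of these properties in the results was not tested.

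Across the groups the 8 genes did not move as a block. Letmd1 was higher under both receptor agonists than in Vehicle, and its difference did not pass under pair feeding. Adtrp and Aqp7 were highest under pair feeding. Cidea was higher in all 3 groups than in Vehicle, and Cidec, Dio2, Kcnk3 and Otop1 passed the test in none of the comparisons. The comparisons with Vehicle share its 6 libraries, so they are not independent of each other.

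TZP against Vehicle is the comparison of tirzepatide with free feeding. Cidea, Letmd1 and Adtrp rose, so 3 of the 8 genes were called higher and 0 lower, where 11.7% of all tested genes were called higher and 10.3% lower. All 8 log2 differences were above 0, with a median of 0.36, against 0.04 for all tested genes.

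LAGIPRA against Vehicle is the comparison of the GIP receptor agonist with free-fed controls. Cidea and Letmd1 rose, 2 of 8 higher and 0 lower, where 8.7% of all tested genes were called higher and 5.03% lower. All 8 differences were again above 0, with a median of 0.34, against 0.03 for all tested genes.

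PairFedVehicle against Vehicle is the comparison of restricted with free feeding, without a drug. Cidea, Adtrp and Aqp7 rose, 3 of 8 higher and 0 lower, where 4.96% of all tested genes were called higher and 3.66% lower. The median difference was 0.22, against 0.02 for all tested genes, and 6 of the 8 differences were above 0.

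TZP against PairFedVehicle set tirzepatide beside reduced feeding. Letmd1 was higher and Adtrp and Aqp7 were lower in TZP, 1 of 8 called higher and 2 lower, where 8.39% of all tested genes were called higher and 8.02% lower. LAGIPRA against PairFedVehicle had Letmd1 higher and Adtrp lower, 1 of 8 in each direction, where 7.3% of all tested genes were called higher and 4.55% lower. TZP against LAGIPRA had 0 of the 8 called by limma, and 0 had an unadjusted p below 0.05, where 2835 of the 17263 tested genes did. In that comparison 0.0521% of all tested genes were called higher and 0.348% lower. The median differences of the 8 genes were 0.11 for TZP against PairFedVehicle, 0.08 for LAGIPRA against PairFedVehicle and -0.03 for TZP against LAGIPRA, where those of all tested genes were -0.0024, -0.012 and 0.012.

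**Figure D1:**
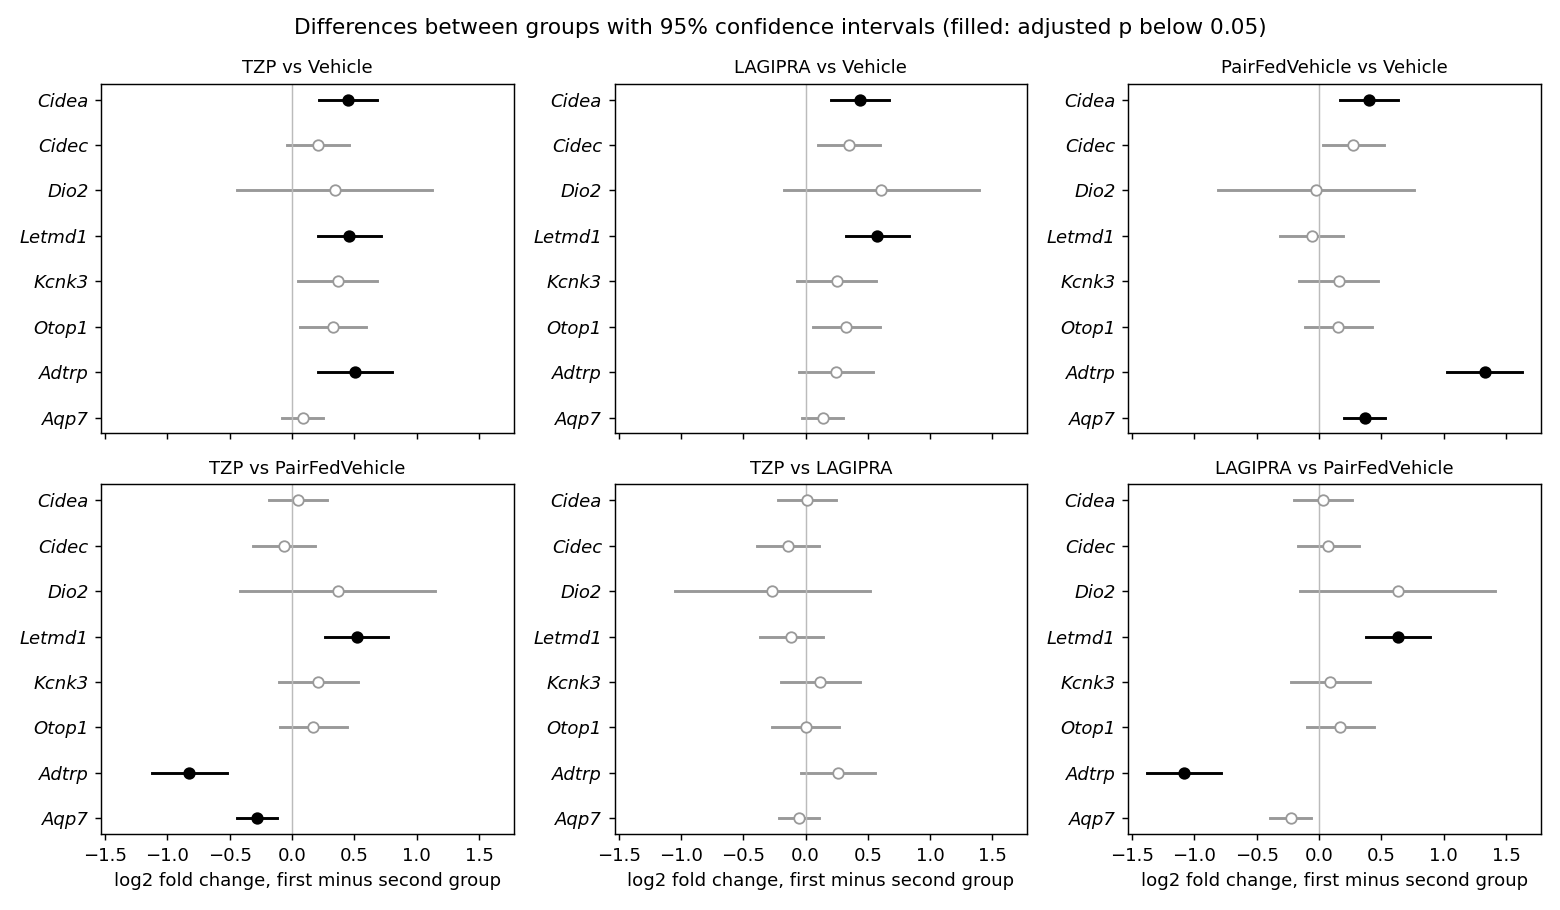
Log2 fold changes (x axis) of the 8 genes (y axis) in the 6 comparisons, first group minus second, with 95% confidence intervals; filled black points have an adjusted p below 0.05. Letmd1 lies to the right of 0 wherever TZP or LAGIPRA is set against Vehicle or PairFedVehicle, and Adtrp reaches 1.33 for PairFedVehicle against Vehicle.

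Cidea (Entrez 12683), a lipid droplet protein used as a marker of mouse brown adipocytes, had a lowest, median and highest value of 13.24, 13.52 and 13.67 in TZP. The same values were 13.30, 13.49 and 13.63 in LAGIPRA, 13.13, 13.43 and 13.83 in PairFedVehicle, and 12.71, 13.09 and 13.30 in Vehicle. In each of TZP, LAGIPRA and PairFedVehicle 5 of 6 libraries lay above the highest Vehicle library, and the groups overlapped in the remaining ones. Cidea averaged 13.49 ± 0.18 in TZP and 13.04 ± 0.23 in Vehicle (SD, n = 6 each), a difference of 0.45 (SE 0.113, 1.36-fold, adjusted p = 0.00789). The difference from Vehicle was 0.43 in LAGIPRA (13.48 ± 0.15; 1.35-fold, adjusted p = 0.0174) and 0.40 in PairFedVehicle (13.44 ± 0.24; 1.32-fold, adjusted p = 0.0288). The 3 groups lay close to each other. TZP minus PairFedVehicle was 0.05 (95% interval -0.19 to 0.28), LAGIPRA minus PairFedVehicle 0.03 (-0.20 to 0.27) and TZP minus LAGIPRA 0.01 (-0.22 to 0.25). Cidea took equal values in 4 pairs of libraries, such as 13.296 in LAGIPRA 2 and Vehicle 5. After quantile normalization a value is set by the rank of a gene within its library.

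The calls of Cidea did not hold everywhere. With the one-read value as a covariate its difference from Vehicle was 0.27 in TZP (adjusted p = 0.0902, with 0.000385 to 0.0987 over all alternatives) and 0.23 in LAGIPRA (adjusted p = 0.255, with 0.00278 to 0.255 over all alternatives). With the length slope as a covariate the TZP difference was 0.54 (adjusted p = 0.0987). With the adipocyte marker mean as a covariate it was 0.33 in TZP, which passed, 0.18 in LAGIPRA, which did not (adjusted p = 0.0888), and 0.20 in PairFedVehicle, which passed. The LAGIPRA call ended without Vehicle 3 (adjusted p = 0.0519). The PairFedVehicle call ended without any 1 of Vehicle 1, 3 or 6 or PairFedVehicle 1, 2 or 3, and when only PairFedVehicle and Vehicle were fitted (adjusted p = 0.0738). Over all alternatives its adjusted p ran from 0.008 to 0.0815.

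Cidec (Entrez 14311), which favours large lipid droplets, ran from 9.54 to 10.12 in TZP, 9.77 to 10.25 in LAGIPRA, 9.59 to 10.21 in PairFedVehicle and 9.36 to 9.87 in Vehicle, and every group overlapped every other. It averaged 9.98 ± 0.19 in LAGIPRA and 9.62 ± 0.19 in Vehicle (SD, n = 6 each), a difference of 0.35 (SE 0.12) that missed the threshold (adjusted p = 0.0521). It passed with library weights (adjusted p = 0.0162), and without any 1 of Vehicle 4 or 5 or LAGIPRA 1 or 2. It also passed with the stricter filter (adjusted p = 0.0425), with only LAGIPRA and Vehicle fitted (adjusted p = 0.0363) and with the length slope covariate (0.41, adjusted p = 0.03). With the adipocyte marker covariate it was 0.11, and its adjusted p ran from 0.0162 to 0.486 over all alternatives. The difference from Vehicle was 0.21 in TZP (95% interval -0.04 to 0.46) and 0.28 in PairFedVehicle (0.03 to 0.52), with adjusted p = 0.216 and 0.163.

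Dio2 (Entrez 13371), the deiodinase whose promoter holds the cAMP element shown above, was the most variable of the 8. Its lowest, median and highest values were 7.11, 8.32 and 9.55 in TZP, 8.10, 8.50 and 9.38 in LAGIPRA, 6.52, 7.98 and 8.95 in PairFedVehicle, and 7.46, 7.92 and 8.68 in Vehicle. Its pooled SD within groups was 0.699, larger than that of 92.5% of the tested genes. The groups overlapped in every pair, and single libraries stood at both ends of a group, such as TZP 1 at 9.55 and TZP 4 at 7.11. The difference from Vehicle was 0.61 in LAGIPRA (95% interval -0.17 to 1.39, adjusted p = 0.277), 0.34 in TZP (-0.44 to 1.13, adjusted p = 0.551) and -0.02 in PairFedVehicle (-0.81 to 0.76, adjusted p = 0.982).

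Letmd1 (Entrez 68614) was higher under both agonists than under pair feeding and than in Vehicle. Its lowest, median and highest values were 9.39, 9.82 and 10.09 in TZP, 9.67, 9.92 and 10.11 in LAGIPRA, 9.02, 9.25 and 9.58 in PairFedVehicle, and 9.09, 9.36 and 9.51 in Vehicle. All 6 LAGIPRA libraries lay above every PairFedVehicle and every Vehicle library. Of the TZP libraries 5 lay above every Vehicle library and 4 above every PairFedVehicle library, with TZP 6 the lowest. Letmd1 averaged 9.90 ± 0.21 in LAGIPRA and 9.32 ± 0.18 in Vehicle (SD, n = 6 each), a difference of 0.57 (SE 0.122, 1.49-fold, adjusted p = 0.00787). TZP, at 9.78 ± 0.27, was 0.46 above Vehicle (SE 0.122, 1.37-fold, adjusted p = 0.0107). PairFedVehicle, at 9.27 ± 0.21, was -0.06 from Vehicle (95% interval -0.31 to 0.19, adjusted p = 0.827).

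Against PairFedVehicle, Letmd1 was 0.63 higher in LAGIPRA (1.55-fold, adjusted p = 0.00141) and 0.52 higher in TZP (1.43-fold, adjusted p = 0.00625). Both of these calls held under every alternative run, at an adjusted p of up to 0.00574 for LAGIPRA and 0.0317 for TZP. TZP minus LAGIPRA was -0.12 (-0.37 to 0.14, adjusted p = 0.679). The calls against Vehicle ended with the one-read covariate, at 0.24 in TZP (adjusted p = 0.131, with 0.00509 to 0.131 over all alternatives) and 0.33 in LAGIPRA (adjusted p = 0.134, with 0.00117 to 0.134 over all alternatives). The LAGIPRA call also ended with the adipocyte marker covariate (0.35, adjusted p = 0.0641), and the TZP call with the length slope covariate (0.67, adjusted p = 0.0576). With TZP 1 and 2 alone the TZP difference was 0.69 and kept its call.

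**Figure D2:**
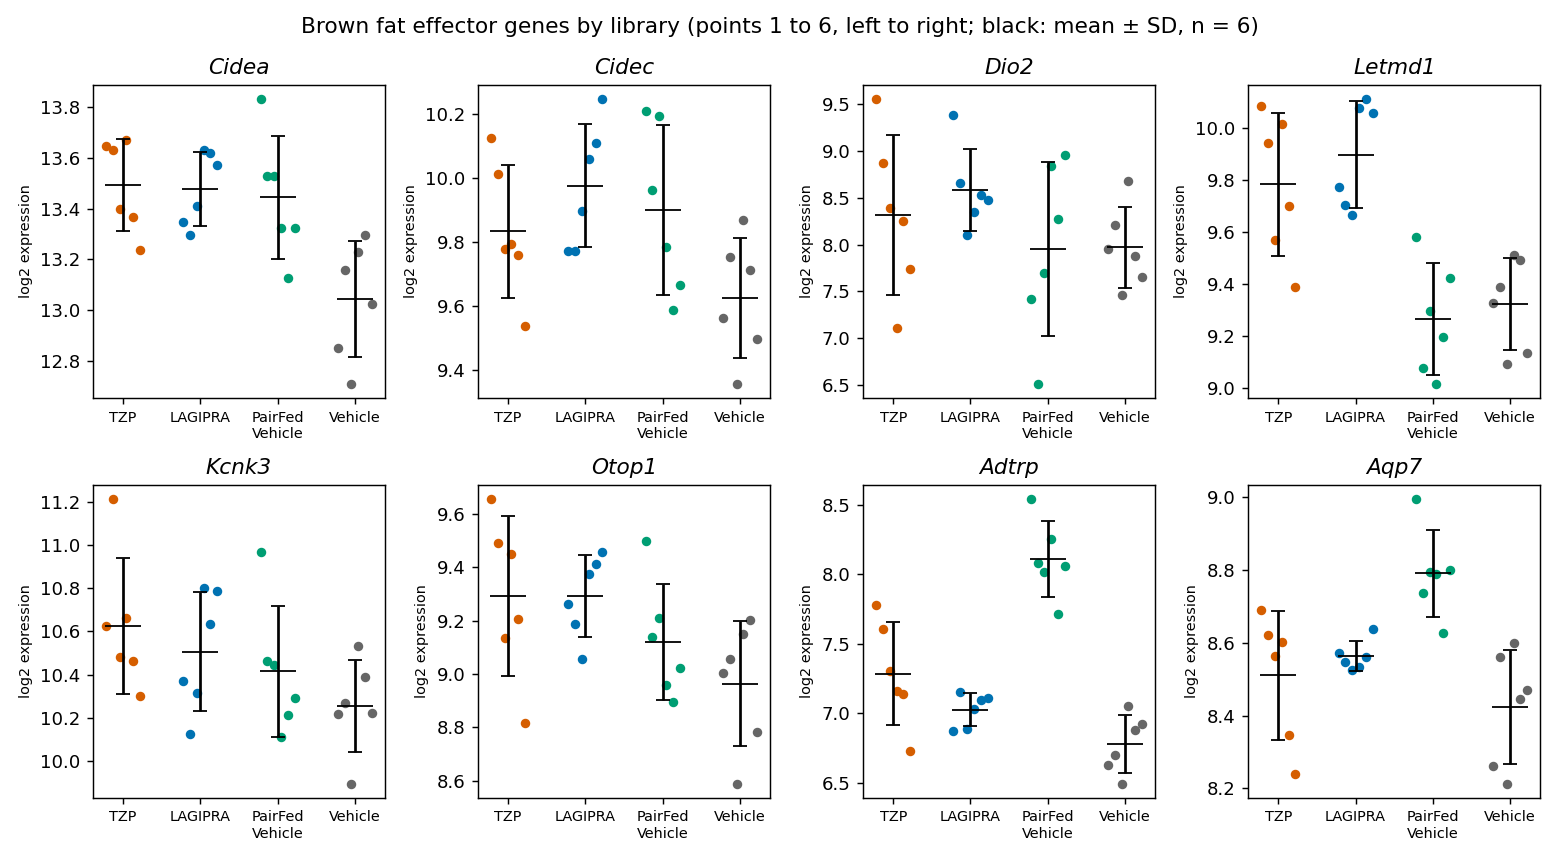
Log2 expression (y axis) of the 8 genes in every library, by group from left TZP, LAGIPRA, PairFedVehicle and Vehicle; points are libraries 1 to 6 in order and black marks are the mean ± SD (n = 6). Letmd1 is high in TZP and LAGIPRA, Adtrp and Aqp7 are high in PairFedVehicle, and Dio2 spreads from 6.52 to 9.55.

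Kcnk3 (Entrez 16527) and Otop1 (Entrez 21906), the channel genes, had their lowest means in Vehicle, and neither passed in any of the 6 comparisons. The mean of Kcnk3 was highest in TZP, while Otop1 averaged 9.29 in both TZP and LAGIPRA. Kcnk3 ran from 10.30 to 11.21 in TZP, 10.13 to 10.80 in LAGIPRA, 10.11 to 10.97 in PairFedVehicle and 9.90 to 10.54 in Vehicle. Its difference from Vehicle was 0.37 in TZP (95% interval 0.05 to 0.69, adjusted p = 0.0868), 0.25 in LAGIPRA (-0.07 to 0.57, adjusted p = 0.269) and 0.16 in PairFedVehicle (-0.16 to 0.48, adjusted p = 0.587). Single libraries, TZP 2 at 11.21 and PairFedVehicle 1 at 10.97, topped their groups. With the one-read covariate the TZP difference was 0.078 (adjusted p = 0.728, with 0.0577 to 0.728 over all alternatives).

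Otop1 ran from 8.82 to 9.66 in TZP, 9.06 to 9.46 in LAGIPRA, 8.89 to 9.50 in PairFedVehicle and 8.59 to 9.20 in Vehicle, with 4 of 6 libraries of both TZP and LAGIPRA above the highest Vehicle library. Its difference from Vehicle was 0.33 in both TZP (0.06 to 0.60, adjusted p = 0.0706) and LAGIPRA (0.06 to 0.59, adjusted p = 0.086), and 0.16 in PairFedVehicle (-0.11 to 0.42, adjusted p = 0.516). The LAGIPRA difference passed with library weights (adjusted p = 0.025), with the length slope covariate (0.41, adjusted p = 0.0348) and without Vehicle 5 (adjusted p = 0.0478). Over all alternatives its adjusted p ran from 0.025 to 0.715. The TZP difference passed without Vehicle 5 (adjusted p = 0.0425) or TZP 6 (0.42, adjusted p = 0.0196). It also passed with TZP 1 and 2 alone (0.61, adjusted p = 0.0333) and with the adipocyte marker covariate (0.21, adjusted p = 0.0446). Over all alternatives its adjusted p ran from 0.0196 to 0.539. Against PairFedVehicle, Kcnk3 and Otop1 passed in TZP with the adipocyte marker covariate alone (0.31 and 0.26, adjusted p = 0.0301 and 0.0124, with upper values of 0.865 and 0.809 over all alternatives).

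Adtrp (Entrez 109254), the FAHFA hydrolase gene, had the largest difference among the 8 genes. Its lowest, median and highest values were 6.73, 7.23 and 7.78 in TZP, 6.87, 7.06 and 7.16 in LAGIPRA, 7.71, 8.07 and 8.54 in PairFedVehicle, and 6.50, 6.79 and 7.05 in Vehicle. Every PairFedVehicle library lay above every LAGIPRA and every Vehicle library, and 5 of 6 TZP libraries lay below every PairFedVehicle library. Adtrp averaged 8.11 ± 0.28 in PairFedVehicle and 6.78 ± 0.21 in Vehicle (SD, n = 6 each), a difference of 1.33 (SE 0.144, 2.51-fold, adjusted p = 4.32e-06). TZP, at 7.29 ± 0.37, was 0.51 above Vehicle (SE 0.144, 1.42-fold, adjusted p = 0.0157), and LAGIPRA, at 7.03 ± 0.12, was 0.25 above (95% interval -0.05 to 0.54, adjusted p = 0.25). The LAGIPRA difference passed with the length slope covariate (0.39, adjusted p = 0.036, with 0.036 to 0.997 over all alternatives).

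The order of the group means of Adtrp was thus PairFedVehicle, TZP, LAGIPRA and Vehicle. TZP was lower than PairFedVehicle (-0.82, SE 0.144, 0.565-fold, adjusted p = 0.000656), and so was LAGIPRA (-1.08, SE 0.144, 0.472-fold, adjusted p = 2.97e-05). The neighbours TZP and LAGIPRA differed by 0.26 (-0.04 to 0.56, adjusted p = 0.38), which did not pass. Both the PairFedVehicle call against Vehicle and the LAGIPRA call against PairFedVehicle held under every alternative run, with an adjusted p of up to 0.000139 and 0.000169. The TZP call against PairFedVehicle held without any 1 library, and with the length slope covariate (-0.50, adjusted p = 0.0472). It ended with TZP 1 and 2 alone, which leaves 2 TZP libraries, at 7.78 and 7.60 (-0.42, adjusted p = 0.138, with 6.4e-05 to 0.138 over all alternatives). The difference of TZP from Vehicle was 0.91 with TZP 1 and 2 alone and 0.96 with the length slope covariate. Its call ended with the one-read covariate (0.29, adjusted p = 0.169, with 0.00452 to 0.169 over all alternatives) and when only TZP and Vehicle were fitted (adjusted p = 0.0515).

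**Figure D3:**
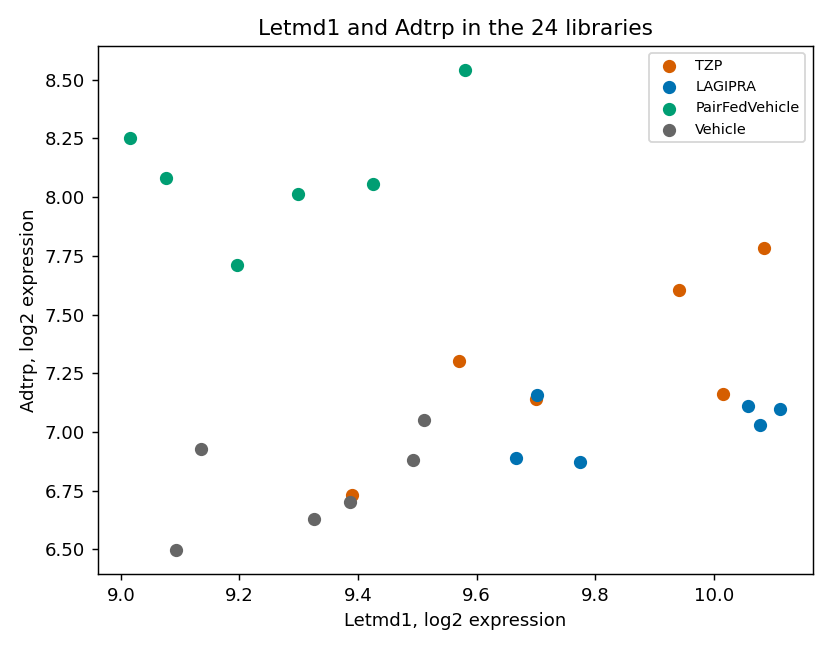
Log2 expression of Adtrp (y axis) against that of Letmd1 (x axis) in the 24 libraries, coloured by group. The PairFedVehicle libraries lie at the upper left, with Adtrp from 7.71 to 8.54 and Letmd1 from 9.02 to 9.58, the LAGIPRA libraries at the lower right, and the TZP libraries spread between Vehicle and higher values of both genes.

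Aqp7 (Entrez 11832), the glycerol channel gene, had lowest, median and highest values of 8.24, 8.58 and 8.69 in TZP, 8.52, 8.55 and 8.64 in LAGIPRA, 8.63, 8.79 and 8.996 in PairFedVehicle, and 8.21, 8.46 and 8.60 in Vehicle. Every PairFedVehicle library lay above every Vehicle library, while TZP and LAGIPRA overlapped Vehicle. Aqp7 averaged 8.79 ± 0.12 in PairFedVehicle and 8.43 ± 0.16 in Vehicle (SD, n = 6 each), a difference of 0.37 (SE 0.078, 1.29-fold, adjusted p = 0.00477) that held under every alternative run, with an adjusted p of up to 0.0184. TZP, at 8.51 ± 0.18, was 0.09 above Vehicle (95% interval -0.08 to 0.25, adjusted p = 0.46), and LAGIPRA, at 8.56 ± 0.04, was 0.14 above (-0.02 to 0.30, adjusted p = 0.232).

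Against PairFedVehicle, Aqp7 was lower in TZP (-0.28, SE 0.078, 0.824-fold, adjusted p = 0.0173), with 5 of 6 TZP libraries below every PairFedVehicle library. The LAGIPRA difference, -0.23 (95% interval -0.39 to -0.07), did not pass (adjusted p = 0.0613), although 5 of its 6 libraries also lay below every PairFedVehicle library. The TZP call ended with TZP 1 and 2 alone (-0.13, adjusted p = 0.431), with the length slope covariate (-0.15, adjusted p = 0.364) and when only TZP and PairFedVehicle were fitted (adjusted p = 0.0653), and its adjusted p ran from 0.00243 to 0.431 over all alternatives. The LAGIPRA difference passed with the stricter filter, with only LAGIPRA and PairFedVehicle fitted, with library weights, with the one-read, length slope or adipocyte marker covariate, and without PairFedVehicle 5, at values of -0.30 to -0.22. Over all alternatives its adjusted p ran from 0.00294 to 0.116.

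Within a group the 8 genes tended to be high or low in the same libraries. TZP 6 was the lowest of its group for 7 of the 8 genes and TZP 1 the highest for 6. LAGIPRA 3 lay below its group mean for all 8. PairFedVehicle 1 was the highest of its group for 7 genes, all but Dio2, and PairFedVehicle 5 the lowest for 5. Vehicle 3 was the lowest of its group for all 8, and Vehicle 4 the highest for 6. Over the 8 genes TZP 1 lay 0.38 above and TZP 6 -0.39 from the TZP mean, and Vehicle 4 lay 0.28 above and Vehicle 3 -0.32 from the Vehicle mean, each as an average log2 deviation. TZP 6 also had the lowest length slope of all libraries, -0.165, and the lowest one-read value of the TZP libraries, 0.962. The adipocyte marker mean was the lowest of its group in TZP 6 (10.81), Vehicle 3 (10.79) and PairFedVehicle 5 (10.90). It was the highest in PairFedVehicle 1 (11.36), but not in TZP 1 (11.19) or Vehicle 4 (11.06). In LAGIPRA 3 (11.15) it lay near its group mean (11.15). The part of these properties in the pattern was not tested.

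**Figure D4:**
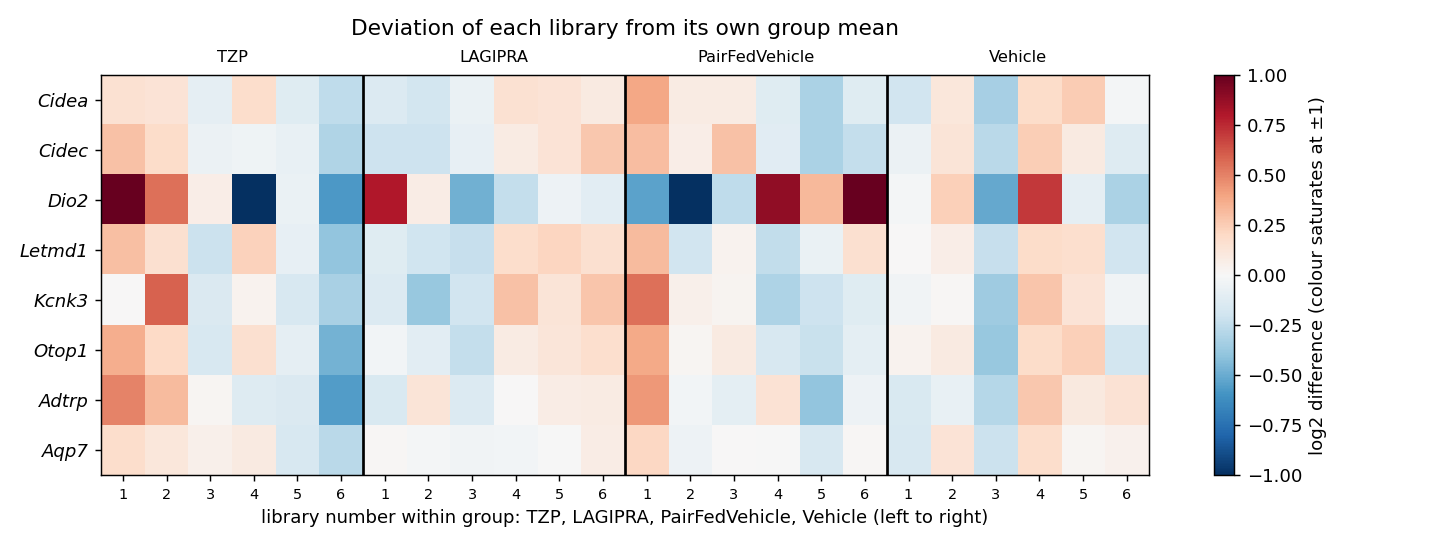
Deviation of each library (x axis, libraries 1 to 6 of each group) from its own group mean for each gene (y axis), as a log2 difference in colour, red above and blue below the mean and saturating at ±1. Vehicle 3 and TZP 6 are blue for all 8 genes, and Dio2 departs from the others in TZP 4 and in PairFedVehicle.

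Likeness between profiles was measured as the root mean square difference of z-scored values over the 24 libraries, which is 0 for the same profile and 1.38 for unrelated ones. Among the 8 genes Adtrp and Aqp7 were the most alike (0.491), followed by Cidea and Otop1 (0.509) and Cidea and Cidec (0.51). Letmd1 and Adtrp were the least alike (1.47). Among 9259 other genes of at least median expression, those most like Letmd1 were Afg1l (0.219), Gfm1 (0.221) and Aifm1 (0.228), whose products work in mitochondria. Those most like Adtrp were Slc27a2 (0.314), a fatty acid transporter and acyl-CoA synthetase, Ephx2 (0.358), a lipid epoxide hydrolase, and Cd300lg (0.374). Ephx2 and Cd300lg were also the genes most like Aqp7 (0.422 and 0.46), followed by Chkb (0.468), a choline kinase.

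Cidea was most like Sgta (0.263), a co-chaperone gene, Eci1 (0.324), an enzyme of unsaturated fatty acid oxidation, and Hddc3 (0.338). Cidec was most like Crat (0.375), the carnitine acetyltransferase, Acadm (0.392), the medium-chain acyl-CoA dehydrogenase, and Uck1 (0.438), a uridine-cytidine kinase. Otop1 was most like Pcca (0.382) of propionyl-CoA carboxylase, Agpat3 (0.407) and the mitochondrial acetyl-CoA synthetase gene Acss1 (0.409). Kcnk3 was most like Cox6a1 (0.446), a subunit of cytochrome c oxidase, Aspg (0.447) and Aifm2 (0.494). Dio2 had no close match, with Mapkapk2 (0.688), a stress kinase, Apold1 (0.7) and Emc3 (0.77) nearest to it.

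Genes related to the 8 by family or step were counted in the same fit. Letm1, a mitochondrial ion exchanger gene related to Letmd1, rose with both agonists. It averaged 10.03 ± 0.22 in TZP, 10.11 ± 0.17 in LAGIPRA, 9.48 ± 0.21 in PairFedVehicle and 9.68 ± 0.17 in Vehicle (SD, n = 6 each), a difference from Vehicle of 0.35 in TZP (adjusted p = 0.0242) and 0.44 in LAGIPRA (adjusted p = 0.0151). Against PairFedVehicle it was 0.55 higher in TZP (adjusted p = 0.00171) and 0.64 higher in LAGIPRA (adjusted p = 0.000474). Letm2 passed in none of the comparisons. Aig1, the other FAHFA hydrolase gene, averaged 6.51 ± 0.21 in TZP, 6.50 ± 0.19 in PairFedVehicle and 6.07 ± 0.21 in Vehicle. It rose by 0.44 in TZP (adjusted p = 0.00731) and by 0.43 in PairFedVehicle (adjusted p = 0.0151) against Vehicle, and it passed in none of the comparisons among TZP, LAGIPRA and PairFedVehicle.

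Of 14 other lipid droplet genes, 1 was higher and 1 lower in TZP against Vehicle, 3 higher and 1 lower in LAGIPRA against Vehicle, and 2 higher and 1 lower in PairFedVehicle against Vehicle. For TZP both counts are below the shares of all tested genes called, 11.7% higher and 10.3% lower; for LAGIPRA these shares were 8.7% and 5.03%, and for PairFedVehicle 4.96% and 3.66%. G0s2, which inhibits the lipase Pnpla2, averaged 12.545 ± 0.38 in TZP, 13.04 ± 0.17 in LAGIPRA, 13.33 ± 0.24 in PairFedVehicle and 12.28 ± 0.33 in Vehicle. Against Vehicle it rose by 0.76 in LAGIPRA (adjusted p = 0.00758) and 1.05 in PairFedVehicle (adjusted p = 0.000174). In TZP its difference from Vehicle was 0.27 (adjusted p = 0.237), and it was lower than in PairFedVehicle (-0.79, adjusted p = 0.00214). The hypoxia-inducible droplet gene Hilpda fell in LAGIPRA against Vehicle (6.44 ± 0.29 and 7.32 ± 0.31, -0.89, adjusted p = 0.01). Plin3, a droplet coat gene, averaged 8.67 ± 0.12 in TZP, 8.71 ± 0.20 in LAGIPRA, 8.19 ± 0.16 in PairFedVehicle and 8.53 ± 0.12 in Vehicle. It fell in PairFedVehicle against Vehicle (-0.34, adjusted p = 0.017), while its difference from Vehicle was 0.14 in TZP (adjusted p = 0.256) and 0.19 in LAGIPRA (adjusted p = 0.152). Against PairFedVehicle it was higher in both TZP (0.48, adjusted p = 0.000884) and LAGIPRA (0.53, adjusted p = 0.000384).

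Of 5 tested genes of glycerol handling, 1 was higher in each comparison with Vehicle and 0 were lower. Of all tested genes, 11.7% were called higher and 10.3% lower in TZP, 8.7% and 5.03% in LAGIPRA, and 4.96% and 3.66% in PairFedVehicle. In TZP and LAGIPRA the gene called higher was Gpd1, which makes glycerol 3-phosphate from a glycolytic intermediate. It averaged 13.83 ± 0.43 in TZP, 13.99 ± 0.29 in LAGIPRA, 12.74 ± 0.24 in PairFedVehicle and 13.27 ± 0.23 in Vehicle. It rose by 0.56 in TZP (adjusted p = 0.02) and 0.72 in LAGIPRA (adjusted p = 0.0117) against Vehicle. Against PairFedVehicle it was higher by 1.09 in TZP (adjusted p = 0.000183) and by 1.245 in LAGIPRA (adjusted p = 3.33e-05). In PairFedVehicle the gene called higher was Pck1 (0.59, adjusted p = 0.0318), which feeds glyceroneogenesis and was named after its values were seen.

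Of 8 tested genes of thyroid hormone handling, 1 was higher and 4 were lower in TZP against Vehicle. In LAGIPRA 2 were higher and 0 lower, and in PairFedVehicle 1 was higher and 1 lower, each against Vehicle. The shares of all tested genes called higher and lower were 11.7% and 10.3% in TZP, 8.7% and 5.03% in LAGIPRA, and 4.96% and 3.66% in PairFedVehicle. Thrsp, a lipogenic gene that responds to thyroid hormone and to feeding, averaged 14.21 ± 0.53 in TZP, 14.36 ± 0.36 in LAGIPRA, 12.51 ± 0.39 in PairFedVehicle and 13.50 ± 0.23 in Vehicle. It rose by 0.71 in TZP (adjusted p = 0.0211) and 0.86 in LAGIPRA (adjusted p = 0.0148) and fell in PairFedVehicle (-0.99, adjusted p = 0.00489). The receptor gene Thrb fell in TZP (3.03 ± 0.91 against 4.31 ± 0.23 in Vehicle, a difference of -1.28, adjusted p = 0.00348). Its TZP mean lay close to the 2.86 of the filter on low values. Ncor1, a corepressor of the thyroid hormone receptors, also fell in TZP (6.82 ± 0.17 against 7.04 ± 0.09 in Vehicle, -0.22, adjusted p = 0.0281). Of 4 tested K2P channel genes other than Kcnk3, 1 was higher in LAGIPRA against Vehicle, where 8.7% of all tested genes were. This was Kcnk4 (5.26 ± 0.48 and 4.26 ± 0.43, a difference of 1.003, adjusted p = 0.0196), and 0 passed in the other comparisons. The remaining otopetrin genes, Otop2 and Otop3, were not analysed here.

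The wider thermogenic list of 20 genes, which holds none of the 8, had 3 higher and 3 lower in TZP against Vehicle (median 0.31), 5 higher and 0 lower in LAGIPRA (median 0.27) and 5 higher and 0 lower in PairFedVehicle (median 0.14). Beside these, 11.7% of all tested genes were called higher and 10.3% lower in TZP, 8.7% and 5.03% in LAGIPRA, and 4.96% and 3.66% in PairFedVehicle, so the TZP counts are near the shares of all genes. Esrra, the nuclear receptor gene that drives mitochondrial genes, rose by 0.39 in both TZP (adjusted p = 0.0042) and LAGIPRA (adjusted p = 0.01) against Vehicle. Against PairFedVehicle it was 0.31 higher in both TZP (adjusted p = 0.018) and LAGIPRA (adjusted p = 0.0211). Slc27a2, the gene most like Adtrp, averaged 7.84 ± 0.40 in TZP, 7.58 ± 0.20 in LAGIPRA, 8.49 ± 0.28 in PairFedVehicle and 7.30 ± 0.27 in Vehicle. It rose by 1.18 in PairFedVehicle against Vehicle (adjusted p = 5.8e-05). Against PairFedVehicle it was lower in both TZP (-0.64, adjusted p = 0.00968) and LAGIPRA (-0.90, adjusted p = 0.00077). Zfp516, a regulator of the brown fat programme, fell in TZP against Vehicle (3.65 ± 0.55 and 4.59 ± 0.19, -0.94, adjusted p = 0.00165). Bmp8b, which codes for a secreted signal that raises thermogenesis in mouse brown fat, averaged 4.59 ± 0.52 in TZP, 3.87 ± 0.63 in LAGIPRA, 2.71 ± 0.85 in PairFedVehicle and 4.04 ± 1.09 in Vehicle. It was 1.87 higher in TZP than in PairFedVehicle (adjusted p = 0.00594), where its mean lay under the 2.86 of the filter on low values. Its difference from Vehicle was 0.54 in TZP (adjusted p = 0.397) and -1.33 in PairFedVehicle (adjusted p = 0.0621).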

How the data were processed

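Brown fat RNA was isolated with TRIzol and a lipid tissue kit and polyA-selected, per the labels' protocols. The submitters' processing notes list cutadapt 1.9.1 and GSNAP. Counter, strand, build and annotation are not given in the sources used here. Values as deposited were taken to be log2 expression per gene, quantile normalized by the authors, since libraries had nearly the same lower quartile (2.88 to 2.95) and upper quartile (6.21 in all). Depth is unknown, and an offset near 1 would understate changes of weakly expressed genes.

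Columns were matched to samples by the description codes, and groups were taken from the titles. A filter removed the lowest 25% of genes by mean (5754 genes, under 2.86). The other 17263 entered a limma 3.58.1 fit (R 4.3.3) of group means to all 24 libraries, using a mean-variance trend. Adjusted p is the Benjamini-Hochberg value over all tested genes. The procedure was tested on simulated data. Figures used matplotlib 3.10.9 in Python 3.11.15. Transcript lengths came from GENCODE M21 (88.6% of tested genes).

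The 8 genes and the related lists were chosen with earlier results of these data known. All 8 genes were named, with the 3 genes most like each, and up to 3 called genes of each related list. Of the list genes, Aqp3, Kcnk9, Otop2 and Otop3 were not analysed here, and others did not pass the filter on low values. This left 8 of 10 listed genes tested for thyroid hormone handling, 5 of 7 for glycerol handling and 4 of 10 for K2P channels. Alternatives changed the filter, threshold, normalization, weights, trend, samples, covariates and the replicate block. The adipocyte marker covariate was chosen after seeing the data.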

Additional observations from a re-analysis of the deposited data

How the results depend on the processing

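The counts of genes called changed with some settings. TZP against Vehicle had 3 called as reported, 1 at an adjusted p below 0.01, 0 with the one-read covariate and 1 with the length slope covariate. LAGIPRA against Vehicle had 2 as reported, 4 with library weights, 1 at an adjusted p below 0.01, 0 with the one-read covariate, 5 with the length slope covariate and 0 with the adipocyte marker covariate. Leaving out 1 library gave 1 to 4, with 1 without Vehicle 3 and 4 without Vehicle 5. TZP against PairFedVehicle had 3 as reported, 1 with TZP 1 and 2 alone and 5 with the adipocyte marker covariate. The counts for PairFedVehicle against Vehicle, TZP against LAGIPRA and LAGIPRA against PairFedVehicle stayed within 1.5 times the reported ones under every setting run. A setting can also change how many of all tested genes are called. Those shares are not given here, so the counts are not read as a result about these genes alone. The cause of these changes was not tested. The replicate block changed no call (3, 2, 3, 3, 0 and 2 genes in the order of the comparisons TZP, LAGIPRA and PairFedVehicle against Vehicle, TZP against PairFedVehicle and LAGIPRA, and LAGIPRA against PairFedVehicle). The labels do not say that numbers pair samples, so the block is not read as a pairing. Same-numbered libraries deviated from their group means with correlations of -0.602 to 0.378 (mean -0.011). Libraries of different number did so with correlations of -0.566 to 0.644 (mean 0.0027). Of 24 libraries, 5 correlated best with a library of their own number.

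The sign of 48 values turned, and none of these was called as reported or under the alternative. With library weights TZP minus LAGIPRA was -0.011 for Cidea and -0.026 for Otop1. With TZP 1 and 2 alone it was 0.092 for Cidec, 0.63 for Dio2, 0.11 for Letmd1 and 0.093 for Aqp7, and TZP minus PairFedVehicle was 0.17 for Cidec. With the length slope covariate TZP minus LAGIPRA was 0.40 for Dio2, 0.028 for Letmd1 and 0.075 for Aqp7, TZP minus PairFedVehicle was 0.066 for Cidec, and PairFedVehicle minus Vehicle was 0.25 for Dio2 and 0.00051 for Letmd1. With the one-read covariate TZP minus Vehicle was -0.023 for Aqp7, LAGIPRA minus Vehicle was -0.072 for Kcnk3, TZP minus PairFedVehicle was -0.058 for Cidea, and LAGIPRA minus PairFedVehicle was -0.091 for Cidea, -0.045 for Cidec and -0.11 for Kcnk3. With the adipocyte marker covariate LAGIPRA minus Vehicle was -0.043 for Kcnk3, PairFedVehicle minus Vehicle was 0.041 for Dio2, -0.072 for Kcnk3 and -0.054 for Otop1, TZP minus PairFedVehicle was 0.014 for Cidec, TZP minus LAGIPRA was 0.0055 for Letmd1 and 0.022 for Aqp7, and LAGIPRA minus PairFedVehicle was -0.018 for Cidea. Without the 3 libraries lowest in muscle (PairFedVehicle 5, Vehicle 1 and TZP 3), LAGIPRA minus PairFedVehicle was -0.029 for Cidea. Leaving out 1 library at a time gave -0.22 to 0.26 for Dio2 in PairFedVehicle minus Vehicle, -0.023 to 0.065 for Cidea, -0.073 to 0.095 for Otop1 and -0.088 to 0.0026 for Aqp7 in TZP minus LAGIPRA, -0.016 to 0.13 for Cidea in TZP minus PairFedVehicle, and -0.029 to 0.11 for Cidea in LAGIPRA minus PairFedVehicle.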
